A study of Mus musculus with 6 samples.

Results

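The histone genes of mouse γδT17 cells are described here across cells before and after culture. Members were all genes whose symbol in the deposited tables starts with Hist1h, Hist2h, Hist3h, Hist4h, H2af or H3f3, and a gene without a row in a library's table was taken as 0. This rule found 76 of 26771 genes, of which 66 were clustered genes (the Hist1 to Hist4 symbols) and 10 were variant genes (H2af and H3f3). γδT17 cells are T cells with a γδ receptor that secrete interleukin-17, and here they were taken from the spleen of TCRβ-/- animals on the C57BL/6 background, which form no αβ T cells in either group. The Initial group was sorted directly from the spleen, with gates that the sources used here do not name. The Induced group came from splenocytes cultured with IL-1β and IL-23, was harvested on day 8 and purified with a pan T cell isolation kit, after which most cells made IL-17A per the labels. There were 3 libraries per group, 1 for each of the mice named A, B and C. Culture, time and method of purification all differed between the groups and cannot be told apart, nor can fewer cells of a type and less RNA per cell. Values were FPKM, fragment numbers scaled to transcript length and library size, so that levels can be set side by side between genes whose mRNAs were captured alike. Depth was estimated from the smallest steps between low values at 18900000 to 23000000 fragments per library. An FPKM of 1 in a transcript of 480 bases, about the length of a clustered histone transcript, then stood for about 9.1 to 11 fragments. This holds if FPKM were scaled to the full length, and the number is smaller if a shorter length was used, which was not checked.

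Histones are the proteins around which DNA is wrapped: H2A, H2B, H3 and H4 form the nucleosome core and H1 binds the linker DNA. Clustered genes lie in dense groups on a few chromosomes, mostly have no introns and are transcribed mainly in S phase. Most of their mRNAs end just after a conserved hairpin instead of in a poly(A) tail. Variant genes lie apart, mostly have introns, give polyadenylated mRNAs through the whole cell cycle, and encode histones such as H3.3 and H2A.Z that are placed into chromatin outside replication as well.

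The hairpin is shown first because it is what separates most clustered mRNAs from those of the variant genes. It was searched in the GENCODE M21 transcript models of GRCm38 as a run of 16 bases, with a stem of 6 bases that starts with GG, a loop of 4 bases that starts with TT, and the stem's complement. It was found in 41 clustered genes and in 1 variant gene, H2afx, and in 0.594% of all protein-coding genes. The models of 23 clustered genes hold no hairpin, but some of them, such as that of Hist1h1b, end at the stop codon. For those genes the search could not tell whether the mRNA has a hairpin. The form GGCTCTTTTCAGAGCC was shared by 24 members of the H1, H2A, H2B and H3 classes, and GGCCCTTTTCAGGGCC by 7 members, all of class H4. Stretches of at most 30 bases around the hairpin of 6 genes named below are given 5′ to 3′ on the coding strand, with the hairpin in capitals.
Hist1h2ap: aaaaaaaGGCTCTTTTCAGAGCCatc
Hist1h4d: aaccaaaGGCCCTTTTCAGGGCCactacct
Hist1h1c: tccaaaaGGCTCTTTTCAGAGCCaccactc
Hist2h2aa1: ctaaaaaGGCTCTTTTCAGAGCCacccact
Hist3h2a: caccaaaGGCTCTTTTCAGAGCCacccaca
H2afx: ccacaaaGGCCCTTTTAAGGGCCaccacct
The annotated transcript of Hist1h2ap ends 3 bases after the hairpin, and that of Hist2h2aa1 35 bases after it. Those of Hist1h1c, H2afx, Hist1h4d and Hist3h2a run on for 840, 822, 770 and 1643 bases. The deposited span of Hist1h4d, however, was shorter than this model and ended 25 bases after the hairpin. The sources used here do not say how the library kit captured mRNA, so levels of mRNAs without a poly(A) tail may depend on a step that was not tested.

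The clustered and the variant genes stood at very different levels in FPKM. Whether mRNAs without a poly(A) tail were captured as well as others was not tested, so this need not be their proportion in the cells. Clustered genes summed to 156, 164 and 185 FPKM in Initial A, B and C and to 412, 451 and 434 in Induced A, B and C. All 3 Induced sums lay above all 3 Initial sums, and the mean was 2.57-fold higher (168 ± 14.9 against 432 ± 19.4, SD, n = 3). Variant genes summed to 2668, 2622 and 2825 FPKM in the Initial and to 2183, 2212 and 2336 in the Induced libraries. Here the Induced sums were the lower ones, with a log2 ratio of -0.27. That ratio was 0.87 in the other direction when libraries were scaled to 21 T cell identity genes. The clustered share of all histone FPKM was 5.85 ± 0.308% in Initial and 16.2 ± 0.681% in Induced libraries (SD, n = 3), and a scaling factor per library cannot alter such a share. These sums are described without a test.

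Each gene was compared between the groups with limma on log2(FPKM + 1), a scale that understates the change of genes with low values, with Benjamini-Hochberg adjustment over all 11265 tested genes. A gene had to reach an FPKM of 1 in at least 3 libraries to be tested. Among the 33 clustered genes tested, 19 rose and 7 fell at an adjusted p under 0.05, and 7 did not pass. Over all tested genes 70.4% were called, of which those that rose were 37.3% and those that fell 33.1% of the genes tested. Of the 7 variant genes tested, 4 rose, 2 fell and 1 did not pass. The median log2 fold change was 1.03 for the tested clustered genes and 0.87 for the tested variant genes, beside 0.03 for all tested genes. A rise or fall of at least 2-fold was called for 17 and 5 clustered genes and for 2 and 1 variant genes, where 12.0% and 13.2% of all tested genes were so called. The libraries of the groups did not overlap in 27 of the 33 clustered and 6 of the 7 variant genes, and in 75.4% of all tested genes. These counts describe the genes that passed the filter and not all members. Of the clustered genes tested, 10 reached an FPKM of 1 in Induced libraries alone and so could hardly fail to be called higher, and Hist3h2a reached it in Initial libraries alone. Among the 22 that reached it in libraries of both groups, 9 rose and 6 fell.

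**Figure D1:**
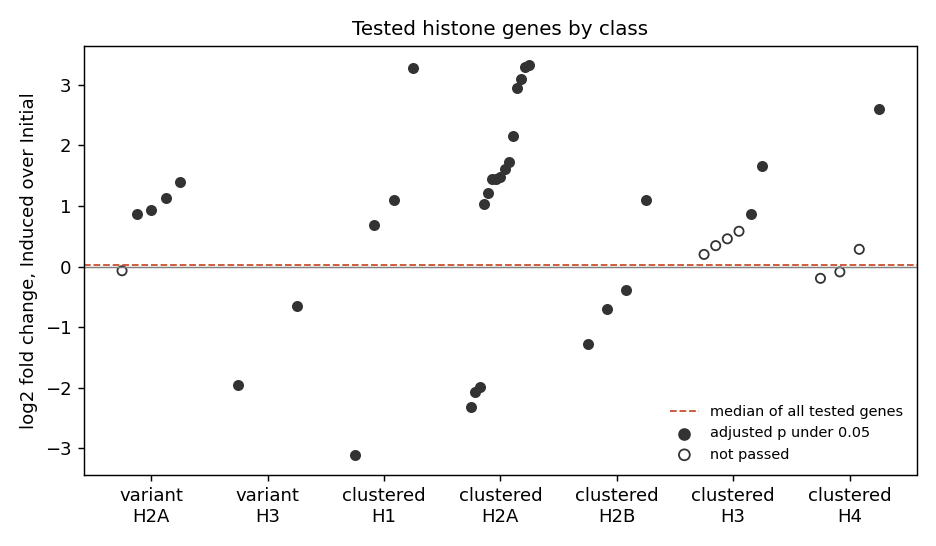
Log2 fold change of Induced over Initial on the log2(FPKM + 1) scale (y axis) for the 40 tested histone genes by class (x axis), where filled points passed an adjusted p under 0.05, open points did not and the dashed line is the median of all tested genes. Clustered H2A genes lie from -2.31 to 3.32, and both variant H3 genes lie below 0.

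The variant genes were led by the H3.3 genes. H3f3a and H3f3b encode the same protein, the H3 variant that replaces H3 in transcribed genes and elsewhere outside replication. H3f3b (chr11:116021912-116027962, − strand, GRCm38) stood at 1515, 1517 and 1539 FPKM in Initial A, B and C and at 379, 371 and 430 FPKM in Induced A, B and C. Every Initial library lay above every Induced library. Its mean fell 3.87-fold (log2 fold change -1.95, SE 0.07, adjusted p = 3.2e-07). H3f3a (chr1:180800832-180813943, − strand) stood at 360, 361 and 413 FPKM in the Initial and at 240, 234 and 246 in the Induced libraries, again without overlap. It fell by 0.65 on the log2 scale (SE 0.07, adjusted p = 1.0e-04), but was higher by 0.48 under the scaling to T cell identity genes, where the median of all tested genes itself stood at 1.04 and H3f3a at -0.56 relative to that median. The ratio of H3f3b to H3f3a within a library needs no scaling, and was 4.21, 4.2 and 3.73 in Initial and 1.58, 1.58 and 1.75 in Induced libraries. H3f3b alone held 53.1% of all histone FPKM in the Initial and 14.7% in the Induced group. The exons of H3f3a overlap those of its antisense gene H3f3aos, which stood at 0.05 FPKM at most.

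Of the H2A variants, 4 rose. H2afz encodes H2A.Z, a variant found at nucleosomes beside transcription start sites. It stood at 438, 423 and 520 FPKM in the Initial and at 863, 919 and 857 in the Induced libraries. The groups did not overlap, and it rose by 0.94 on the log2 scale (SE 0.09, adjusted p = 4.1e-05). H2afv, the gene of a close H2A.Z relative, stood at 39.7, 33.0 and 44.4 FPKM in the Initial and at 70.6, 73.0 and 71.9 in the Induced libraries. It rose by 0.87 (SE 0.10, adjusted p = 1.3e-04), also without overlap. H2afy encodes macroH2A, which carries a large extra domain and is known from silent chromatin. Its values were 236, 212 and 225 FPKM before and 474, 442 and 562 FPKM after culture. It rose by 1.13 on the log2 scale (SE 0.10, adjusted p = 2.3e-05), and its lowest Induced library lay above its highest Initial one.

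H2afx encodes H2A.X, which is phosphorylated beside DNA breaks, and its mRNA is known in a form that ends at the hairpin and in a polyadenylated one. It stood at 54.7, 48.8 and 54.3 FPKM in the Initial and at 132, 149 and 139 FPKM in the Induced libraries. This was the steepest change among the variant genes that rose, at 1.40 on the log2 scale (SE 0.07, adjusted p = 1.7e-06) or 2.66-fold. H2afj, another H2A variant gene, stood at 24.0, 26.2 and 29.9 FPKM in the Initial and at 23.9, 23.5 and 28.9 in the Induced libraries. Its groups overlapped and it did not pass (log2 fold change -0.07, SE 0.11, adjusted p = 0.584). Under the scaling to T cell identity genes it was 1.03, close to the median of all genes under that scaling. The remaining variant members were not tested. H2afy2, the gene of the other macroH2A, had no row in the Initial libraries and 0.0395, 0.232 and 0.211 FPKM in the Induced libraries. H2afy3, annotated as a processed pseudogene, had a row of 0.0553 FPKM in Induced B alone.

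**Figure D2:**
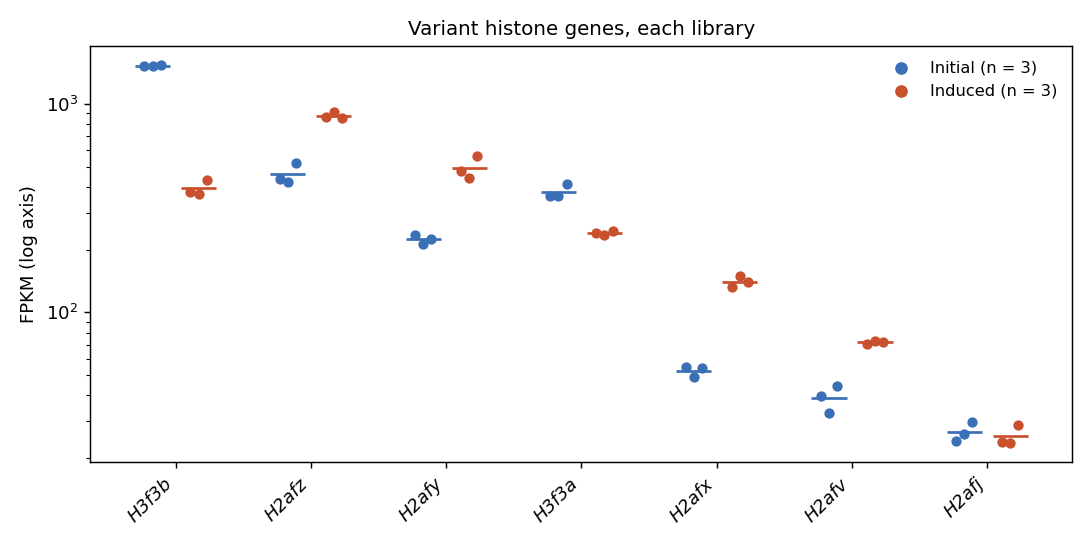
FPKM on a log axis (y axis) of the 7 tested variant histone genes (x axis) in each Initial and Induced library (points, n = 3 per group), with a line at each group's mean. H3f3b and H3f3a are lower in every Induced library, H2afz, H2afy, H2afx and H2afv are higher, and the groups of H2afj overlap.

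In the Initial libraries the order of the variant means was H3f3b (1524 ± 13.0), H2afz (460 ± 52.5), H3f3a (378 ± 30.1), H2afy (224 ± 11.7), H2afx (52.6 ± 3.29), H2afv (39.0 ± 5.70) and H2afj (26.7 ± 2.98 FPKM, SD, n = 3). In the Induced libraries it was H2afz (879 ± 34.0), H2afy (493 ± 62.0), H3f3b (394 ± 32.2), H3f3a (240.0 ± 5.85), H2afx (140.0 ± 8.24), H2afv (71.8 ± 1.20) and H2afj (25.4 ± 3.00 FPKM). The ranges of all neighbours in these orders stayed apart, so H3f3b moved from first place to behind H2afz and H2afy. Variant H2A genes together had means of 803 and 1610 FPKM, while the H3.3 genes went from 1902 to 634 FPKM, sums that were not tested.

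The clustered genes differed by class. Their H2A genes summed to 63.0, 51.3 and 68.8 FPKM in the Initial and to 322, 350.3 and 337 in the Induced libraries. Every Induced sum lay far above every Initial one, with a ratio of means of 5.52. H1 sums ran the other way, from 56.6, 71.3 and 68.9 to 32.6, 29.6 and 32.1 FPKM. H2B sums had means of 25.1 and 18.1 FPKM, H3 sums 5.85 and 17.3, and H4 sums 10.8 and 28.7. H2A made up 36.3% of clustered FPKM before and 77.9% after culture, and H1 39.0% and 7.29%. Of the H2A genes, 12 of the 15 tested rose and 3 fell, but 7 of the 12 passed the filter through Induced libraries alone and Hist3h2a through Initial libraries alone, so that their direction was largely set by the filter. The other 5 that rose and the Hist2h2aa pair that fell kept these calls under each of the 5 scalings tried. Of the H1 genes, 3 of 4 tested rose and Hist1h1c fell. H2B had 1 gene that rose and 3 that fell among 4 tested, H3 had 2 that rose and 4 that did not pass, and H4 had 1 that rose and 3 that did not pass. The H2B and H3 genes that rose were tested through Induced libraries alone. By location, 17 of the 26 tested genes of the Hist1 cluster on chromosome 13 rose and 3 fell. In the Hist2 cluster on chromosome 3 these were 2 and 3 of 6, and the only tested gene of Hist3, on chromosome 11, fell. The 10 genes tested through Induced libraries alone all lie in Hist1 or Hist2, and all rose. Among them are Hist2h2ac and Hist2h3c2, the only Hist2 genes that rose. Hist3h2a was tested through Initial libraries alone, so these counts by location were also partly set by the filter.

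**Figure D3:**
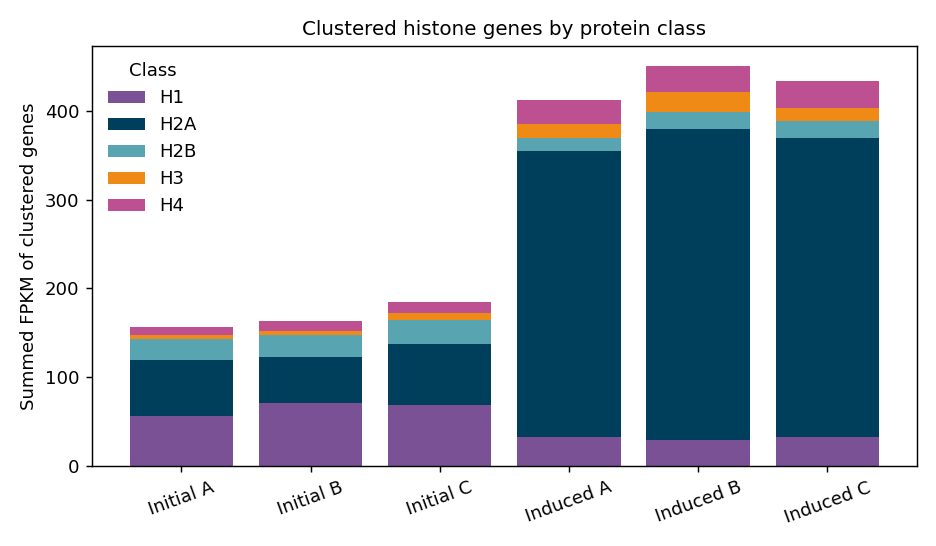
Summed FPKM (y axis) of the clustered histone genes in each library (x axis), stacked by protein class. The bars reach 156 to 185 in the Initial and 412 to 451 in the Induced libraries, where H2A takes the largest part.

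The most abundant clustered genes after culture were H2A genes. Hist1h2ap (chr13:21833026-21833507, − strand) stood at 14.8, 10.7 and 16.8 FPKM in the Initial and at 141, 150.2 and 152 FPKM in the Induced libraries. It rose 10.5-fold (log2 fold change 3.32, SE 0.14, adjusted p = 7.6e-07), with no overlap. The coding sequence of Hist1h2ao (chr13:21810465-21810944, + strand) is identical to it, so the split of reads between them is uncertain, and their sum was 18.4 ± 3.76 FPKM before and 192 ± 8.09 FPKM after culture (SD, n = 3). Hist1h2ao itself was given as 4.74, 3.47 and 4.68 FPKM in the Initial and as 41.1, 44.5 and 46.0 in the Induced libraries. It rose by 3.09 on the log2 scale (SE 0.11, adjusted p = 2.7e-07).

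Hist1h2aj, which GENCODE annotates as an unprocessed pseudogene of the H2A class, stood at 9.29, 5.91 and 6.88 FPKM in the Initial and at 80.2, 87.8 and 73.0 FPKM in the Induced libraries. It rose by 3.30 (SE 0.15, adjusted p = 8.2e-07), but its reads may belong in part to related H2A genes. Hist1h2ap, Hist1h2aj and Hist1h2ao together held 15.4% of clustered FPKM in Initial and 62.9% in Induced libraries. Hist1h2ag, a further H2A gene, stood at 2.87, 2.05 and 3.47 FPKM in the Initial and at 26.2, 29.98 and 27.4 FPKM in the Induced libraries, and rose by 2.94 (SE 0.14, adjusted p = 1.0e-06). Among the 62 members whose coding sequences could be compared, 45 had a copy of at least 95% identity, and 8 had an identical one. How reads that match several copies were counted is not stated in the sources used here, so values of single genes and of their sums may both depend on it.

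Not all clustered H2A genes moved together. Hist2h2aa1 (chr3:96245497-96246082, + strand) stood at 8.67, 8.69 and 10.5 FPKM in the Initial and at 1.43, 1.63 and 1.68 FPKM in the Induced libraries. It fell by 1.99 on the log2 scale (SE 0.11, adjusted p = 2.0e-06). Its identical copy Hist2h2aa2 went from 7.46, 7.69 and 10.7 FPKM to 1.3, 1.48 and 1.0 FPKM. It fell by 2.08 (SE 0.15, adjusted p = 1.0e-05), and the pair summed to 17.9 ± 2.85 FPKM before and 2.84 ± 0.235 FPKM after culture (SD, n = 3). Hist3h2a (chr11:58954685-58956830, + strand), the H2A gene of the Hist3 cluster, stood at 8.38, 8.41 and 8.98 FPKM in the Initial and at 0.849, 0.944 and 0.998 FPKM in the Induced libraries. It fell by 2.31 on the log2 scale (SE 0.10, adjusted p = 5.0e-07) or 9.24-fold. None of these 3 genes had overlapping groups. Their exons overlap those of other genes, of which Gm20634 (at Hist2h2aa1), Gm20632 (at Hist2h2aa2) and Trim17 (at Hist3h2a) reached 1.11, 2.48 and 0.661 FPKM, and reads shared with them cannot be told apart.

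The linker histone genes went in opposite directions. Hist1h1c (chr13:23738808-23740367, + strand), an H1 gene, held the highest level of all clustered genes before culture, with 54.1, 65.8 and 63.0 FPKM, and stood at 6.81, 5.87 and 5.79 FPKM after it. It fell by 3.11 on the log2 scale (SE 0.10, adjusted p = 1.4e-07) or 9.90-fold. Hist1h1b (chr13:21779883-21780625, − strand), another H1 gene, stood at 0.356, 1.37 and 0.754 FPKM in the Initial and at 15.6, 16.03 and 17.5 FPKM in the Induced libraries. It rose by 3.29 (SE 0.19, adjusted p = 3.2e-06), and was the clustered gene with the steepest rise in FPKM among those named here, at 19.8-fold, from an Initial level of few fragments. Hist1h1e, also of class H1, stood at 1.77, 2.59 and 3.94 FPKM in the Initial and at 7.50, 6.08 and 6.93 FPKM in the Induced libraries. It rose by 1.09 (SE 0.20, adjusted p = 0.0017). In its GENCODE model of 1930 bases its exons overlap those of Hist1h2be, which reached 1.16 FPKM. The deposited span of Hist1h1e had 748 bases and ended 27 bases after the hairpin, so that overlap may not apply to these values. Hist1h1d was called higher at an adjusted p of 0.0337, which was 0.065 with the mouse as a block.

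The H2B and H4 classes had few members above the filter. Hist1h2bc, an H2B gene, stood at 13.6, 15.4 and 15.8 FPKM in the Initial and at 4.87, 5.60 and 6.24 FPKM in the Induced libraries. It fell by 1.28 on the log2 scale (SE 0.10, adjusted p = 1.7e-05), but lost its call under the scaling to T cell identity genes (adjusted p = 0.075). Hist1h4d, an H4 gene, stood at 2.47, 2.53 and 3.08 FPKM in the Initial and at 19.3, 22.8 and 22.4 FPKM in the Induced libraries. It rose by 2.60 (SE 0.10, adjusted p = 4.3e-07), and its groups lay far apart.

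**Figure D4:**
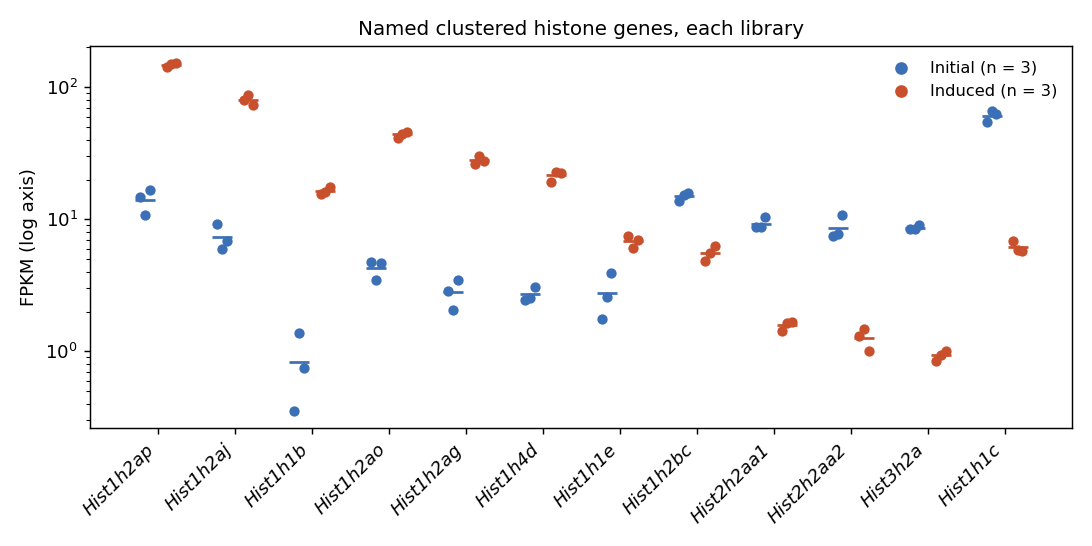
FPKM on a log axis (y axis) of the 12 clustered histone genes described one by one (x axis) in each Initial and Induced library (points, n = 3 per group), with a line at each group's mean. No gene has overlapping groups, and Hist1h1c, at 54.1 to 65.8 before culture, is the highest clustered gene there.

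The other clustered genes were lower. A further 12 rose by 0.68 to 2.15 on the log2 scale, from Initial means of 0.190 to 1.60 FPKM to Induced means of 1.16 to 7.58 FPKM. Of these, 10 were the genes that passed the filter through Induced libraries alone, and the other 2 were Hist1h1d and Hist1h2ae. Hist1h2bg and Hist2h2be, both of class H2B, fell by 0.70 and 0.39 (adjusted p = 0.0093 and 0.0188 with limma), but Hist1h2bg lost its call under the scaling to T cell identity genes, and Hist2h2be there, under the scaling to the CD3 chains with Trdc and under quantile normalization. The 7 that did not pass were H3 and H4 genes, with log2 fold changes from -0.19 to 0.58 and adjusted p from 0.0579 to 0.714. The 33 clustered genes that were not tested reached 2.86 FPKM at most in any library. Hist2h3c1, an H3 gene among them, had no row in the Initial libraries and 1.05, 1.53 and 0.722 FPKM in the Induced libraries. A row was present for 56, 55 and 59 of the 66 clustered genes in the Initial and for 60, 62 and 63 in the Induced libraries. An FPKM of at least 1 was reached by 17, 23 and 23 of them before and by 33, 36 and 35 after culture, without overlap.

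Gene models were then set beside these values, with limits chosen after the values were seen and no test. For 36 clustered genes the span in the deposited tables could be placed against the hairpin, and for 25 of them it ended 3 to 63 bases after it. In that set 17 genes were tested, of which 13 rose (6 of them tested through Induced libraries alone), Hist1h2bg fell and 3 did not pass. For the other 11 genes the span ran on for 169 to 2445 bases, and of the 5 tested Hist2h3c2, also tested through Induced libraries alone, rose, Hist1h1c fell and 3 did not pass. A poly(A) signal, AATAAA or ATTAAA on the transcribed strand, stood in the last 40 bases of the GENCODE model in 15 of 64 clustered genes (23.4%) and in 70.0% of all protein-coding genes. Of the 5 tested clustered genes with it, Hist1h2ae rose, Hist1h1c, Hist2h2be and Hist3h2a fell, and Hist1h4i did not pass. Of the 28 tested without it, 18 rose and 4 fell, and 10 of the 18 were tested through Induced libraries alone. Nothing is read from these splits.

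Promoters from RefSeq (GRCm38.p6), 250 bases before to 50 bases after the start, were matched for 63 members. The letters CCAAT, known as a site of the factor NF-Y, were present on either strand in 47 of 56 clustered promoters (83.93%) and in 37.41% of all 32851 promoters. They were also present in 6 of 7 variant promoters (85.71%), so they do not set the clustered genes apart from the variant genes. TATAAA, the TATA box, was present in 57.14% of clustered and 13.62% of all promoters. ATGCAAAT, the octamer bound by Oct-1, was present in 19.64% and 1.74%. Each of these motifs was found in 1 of 7 variant promoters (14.29%). CCAAT was found in every matched H1, H2A, H2B and H3 promoter of the clusters, but in 3 of 12 H4 promoters. All 18 matched promoters of clustered genes that rose held CCAAT, as did all 5 of those that fell, so these letters do not separate the directions. The promoters of the clustered genes Hist1h2ap (chr13:21833426-21833725, − strand), Hist1h1b (chr13:21780576-21780875, − strand) and Hist1h1c (chr13:23738557-23738856, + strand) and of the variant gene H3f3b (chr11:116024455-116024754, − strand) are shown because they stand for the steepest changes in each direction. Capitals mark the CCAAT, TATA box and octamer letters on either strand, each searched on its own, and a match is a description of the letters and no evidence of binding.
Hist1h2ap: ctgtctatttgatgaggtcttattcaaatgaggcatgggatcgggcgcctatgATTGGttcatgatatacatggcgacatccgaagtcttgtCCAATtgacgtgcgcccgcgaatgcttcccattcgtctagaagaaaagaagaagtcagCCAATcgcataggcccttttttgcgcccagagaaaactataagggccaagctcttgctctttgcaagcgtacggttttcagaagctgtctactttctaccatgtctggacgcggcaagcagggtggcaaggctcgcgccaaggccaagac
Hist1h1b: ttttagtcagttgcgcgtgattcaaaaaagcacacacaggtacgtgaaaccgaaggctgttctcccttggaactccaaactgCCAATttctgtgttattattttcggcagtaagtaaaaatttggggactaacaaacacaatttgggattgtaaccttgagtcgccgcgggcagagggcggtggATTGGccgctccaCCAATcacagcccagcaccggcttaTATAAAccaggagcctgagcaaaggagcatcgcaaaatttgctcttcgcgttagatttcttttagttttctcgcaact
Hist1h1c: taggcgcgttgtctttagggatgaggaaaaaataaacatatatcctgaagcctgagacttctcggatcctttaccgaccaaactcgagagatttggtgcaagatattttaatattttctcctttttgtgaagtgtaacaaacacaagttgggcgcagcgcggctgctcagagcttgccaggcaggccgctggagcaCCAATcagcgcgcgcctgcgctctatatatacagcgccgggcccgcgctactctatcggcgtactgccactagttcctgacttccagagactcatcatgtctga
H3f3b: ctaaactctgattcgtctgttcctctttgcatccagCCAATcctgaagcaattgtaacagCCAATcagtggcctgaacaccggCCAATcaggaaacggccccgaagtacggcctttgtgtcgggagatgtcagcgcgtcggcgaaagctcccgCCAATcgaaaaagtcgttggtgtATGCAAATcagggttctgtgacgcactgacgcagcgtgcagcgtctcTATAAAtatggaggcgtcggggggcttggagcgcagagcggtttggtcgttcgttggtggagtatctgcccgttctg
Hist1h1b, which rose, and Hist1h1c, which fell, both hold CCAAT, 3 times and 1 time. H3f3b holds all of the motifs searched.

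Genes that make, process and load histones were set beside the members, from lists chosen with earlier results of these data known. Of 20 genes of histone transcription and 3′ end processing, 14 rose and 2 fell, with a median log2 fold change of 0.39, where 37.3% of all tested genes rose, 33.1% fell and the median was 0.03. Slbp, whose protein binds the hairpin, stood at 168, 164 and 173 FPKM in the Initial and at 342, 346 and 348 in the Induced libraries, a rise of 1.03 (SE 0.06, adjusted p = 2.1e-06). Eri1, an exonuclease that trims the hairpin's end, went from 20.3 ± 0.708 to 47.6 ± 2.05 FPKM (SD, n = 3) and rose. Hinfp, a transcription factor of H4 genes, went from 9.81 to 7.54 FPKM, and Cpsf3, the nuclease that cuts histone precursors, from 56.0 to 46.2. Both fell, but not under the scalings to the CD3 chains with Trdc or to T cell identity genes.

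Of 15 chaperones that act with replication, 11 rose and 2 fell (median 0.59). Asf1b, which hands H3 and H4 on, went from 15.7 ± 1.19 to 172 ± 9.10 FPKM and Chaf1a, a subunit of the chromatin assembly factor CAF-1, from 3.04 ± 0.380 to 37.5 ± 2.66 FPKM (SD, n = 3), and both rose. Asf1a, the paralogue of Asf1b, went from 25.01 to 19.5 FPKM and the importin Ipo4 from 14.2 to 12.1, falls that were lost under those same scalings. Of 23 tested chaperones and remodellers that act outside replication, 11 rose and 8 fell (median 0.09), with a share of falls near that of all tested genes. Oip5, which helps load the centromeric H3 variant, rose from 1.66 to 28.6 FPKM. Srcap, a remodeller that places H2A.Z, fell from 11.9 to 6.34 FPKM and the remodeller Ino80 from 1.73 to 0.689, though neither was called lower when scaled to T cell identity genes. Of histone genes outside the rule, H1f0, a linker histone gene, rose from 11.9 to 96.2 FPKM and Cenpa, the centromeric H3 variant, from 60.9 to 160.0.

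Of 27 genes of DNA replication and S phase, 26 rose, with a median of 2.29. Rrm2, a subunit of ribonucleotide reductase, rose from 21.7 ± 2.83 to 407 ± 30.2 FPKM and Ccna2, cyclin A, from 6.52 ± 0.800 to 137 ± 8.53 FPKM (SD, n = 3). Of 19 tested genes that phosphorylate H2A.X or act in the DNA damage response, 14 rose and Eya2, a phosphatase gene, fell from 21.4 to 16.1 FPKM, a call lost under the CD3 and T cell identity scalings. Chek1, a checkpoint kinase, rose from 1.61 to 13.8 FPKM.

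Markers of other cells were lower after culture, as were 33.1% of all tested genes. Of 21 T cell identity genes, 14 were lower as well and 2 were higher. The summed FPKM of 12 genes of γδT17 cells was 1618 to 1757 in the Initial and 1628 to 1883 in the Induced libraries. Of 9 B cell markers the 8 tested were lower after culture, with sums of 3106 to 3634 before and 84.0 to 163 after. All 8 markers of red pulp macrophages were lower, with sums of 509 to 899 and 5.17 to 8.94, and so were the 7 red cell markers with a row, with 1220 to 1745 and 1.17 to 1.64. Alas2, the heme synthesis gene of red cells, was at 0 in all Induced libraries, as were the macrophage markers C1qa and Spic in Induced C. The part of these cells in the Initial levels of Hist1h1c, Hist3h2a, the Hist2 genes and the H3.3 genes was not tested.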

How the data were processed

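Messenger RNA of 6 libraries was measured, 3 Initial and 3 Induced. The authors used the VAHTS mRNA-seq v2 kit and an Illumina HiSeq instrument, and deposited FPKM from Cuffdiff, per the labels' protocols. The submitters' processing notes name HISAT2 2.0.5, CASAVA, Cuffdiff (both 2.2.1 and 1.3.0) and build mm9. The deposited gene spans, however, overlap the GRCm38 positions of all 74 members found in GENCODE M21, so positions are given from that annotation. The sources used here do not state how strand was handled. No listed value was 0, so a missing row, taken as 0, may mean that no estimate was made, and genes with a library at 0 are given by library. The 6 tables list 16550 to 21844 genes each, and their FPKM sum to 432626 to 458818.

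Log2(FPKM + 1) was tested with limma 3.58.1 in R 4.3.3 (trend, robust, two-sided, no block). Named were all variant genes with values, the 12 clustered genes with the highest mean, the 5 largest called rises and falls among clustered genes, and 2 of each from every list, of which 2 genes are not reported here. Members and lists were chosen with earlier results of these data known. Near-whole low values (43.2 to 47.6% within 0.15 of a whole multiple, 30% by chance) gave the rough depths, and intervals from counting were not used. On simulated data for this comparison (11265 genes, 50 changed per size) changes of 1.5-fold were found in 50%, of 2-fold in 82%, of 4-fold in 100% and of 8-fold in 94% of cases. There 7 of 170 calls were false. Far fewer genes were changed in it than the 70.4% called in the data, so these figures may not carry over. The mouse letters pair the libraries by animal. Deviations from the group mean correlated between libraries of a mouse at 0.0393, 0.0307 and 0.1308 (A, B and C), and between other pairs at -0.1324 to 0.0988. Alternatives were pseudocounts of 0.1 and 5, no filter or one at FPKM 5, 5 scalings, a mouse block, limma without trend and leaving out each library. Tables and figures were made in Python 3.11.15 (matplotlib 3.10.9, scipy 1.17.1, pandas 2.3.3, numpy 2.4.6).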

Additional observations from a re-analysis of the deposited data

How the results depend on the processing

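Of the calls among histone genes, 26 clustered and 6 variant, every one was kept with pseudocounts of 0.1 and 5, TMM-like scaling, scaling to a common sum and limma without trend. With a filter at FPKM 5, 8 clustered genes in place of 19 were called higher, since fewer were tested. Scaled to the T cell identity list, of whose 21 genes 14 had themselves fallen, 4 clustered and 1 variant gene were called lower, and the log2 ratio of the clustered sums was 2.51 (1.59 scaled to the CD3 chains and Trdc, 1.36 as deposited). That of the variant sums was 0.87, against -0.041 with the CD3 chains and Trdc and -0.35 with TMM-like scaling. H3f3a (0.48, adjusted p = 0.00215) and H2afj (1.03, adjusted p = 8.4e-07) were then higher, while the median of all genes moved to 1.04 (0.23 with the CD3 chains and Trdc) and 88.2% of calls were higher (66.8% and, as deposited, 52.9%). All 26 clustered and 6 variant calls kept their side of that median under each of the 5 scalings. Apart from the pseudocount, a factor per library moves every gene and the median alike. For every scaling except quantile normalization this outcome was therefore largely fixed in advance.

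With the mouse as a replicate block, 18 clustered genes rose and 7 fell, Hist1h1d (adjusted p = 0.065) being the call lost, and no variant call changed. Leaving out each library gave 18 to 21 and 6 to 7 clustered and 4 and 2 variant calls, and 7103 to 7916 calls over all genes. The log2 ratio of sums was then 1.31 to 1.43 for clustered and -0.30 to -0.24 for variant genes, and the clustered share differed by 9.92 to 10.6 percentage points (10.3 with all). Hist1h1d lost its call without Initial A (adjusted p = 0.105), Initial C (0.0851) or Induced A (0.110), and Hist2h2be without Initial C (0.0545) or Induced A (0.0729), in limma. Without the filter 28 clustered genes were higher and 9 lower, but Hist1h1d was lost (adjusted p = 0.0791). At these depths clustered genes near an FPKM of 1 rest on about 10 fragments by their full length, or on fewer.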
